A study of Homo sapiens with 3 samples.

Results

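The slivers are the narrowest targets of a capture design for intron ends: intervals of 1 to 30 nt on chromosomes 1 to 22. They were chosen by width alone, as the end minus the start of each listed interval. There were 3495 of them among 363390 intervals on these chromosomes and 377858 in the whole list. The study captured RNA from K562, a human erythromyeloblastoid leukaemia line, in 3 libraries that form 1 group, labelled biological replicates, with ERCC spike-in RNA at 1%, 1% and 1.08%. The list belongs to all 3 libraries, so it gives no value per library and no comparison between groups. Positions and widths are those of a fixed list and have no sampling error. The depth and error behind its score are unknown.

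In splicing, the 5′ end of an intron is cut at the donor site and joined to a base near the 3′ end, the branchpoint, before the acceptor site is cut. A capture probe near either end of an intron can therefore pull out the looped intron or the unspliced RNA. The authors targeted the 100 nt at both ends of each annotated intron of GENCODE release 12 and removed what overlapped an annotated exon or was highly transcribed in K562, with repeats also left out. A sliver is an interval of the list that kept at most 30 nt. An exon can reach into that stretch from another splice site, from the start or end of another transcript, or from a gene on the other strand.

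Where an annotated transcript covers the rest of an intron end, that transcript can be read across the splice site. Slivers were tied to genes by matching widths and gaps to an annotation, as described with the gene structures. In the sequences that follow, from GENCODE release 29 transcripts on GRCh38, the capitals mark the first 2 bases of the intron at a donor or the last 2 at an acceptor. The lower-case bases on the exon side are 12 bases that are coding in another transcript. The lower-case bases on the intron side are the covered part of the 100 nt end, and the sliver begins where the sequence stops on that side. They are shown because they are the bases lost from the target. The slivers are examples of 1 kind, the far end of a target whose splice-site side is covered by a retained-intron transcript of the same gene. There are 3 for each kind of site, picked after their scores were seen. They scored highest among those whose exon side is coding in another transcript and whose stretch lies away from annotated untranslated regions. A retained-intron transcript is a model that keeps part of an intron and is not annotated as coding. Those on the donor side are from BHLHE40 (a transcription factor of circadian and stress responses, chr3:4981504-4981610, plus strand), FGFR3 (a fibroblast growth factor receptor, chr4:1803053-1803152, plus strand) and ARFGAP1 (a GTPase activator of Golgi transport, chr20:63276640-63276742, plus strand).
BHLHE40 donor: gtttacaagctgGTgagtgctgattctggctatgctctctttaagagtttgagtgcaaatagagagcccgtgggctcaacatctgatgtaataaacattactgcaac
FGFR3 donor: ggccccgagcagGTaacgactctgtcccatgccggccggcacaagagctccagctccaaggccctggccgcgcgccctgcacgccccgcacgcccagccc
ARFGAP1 donor: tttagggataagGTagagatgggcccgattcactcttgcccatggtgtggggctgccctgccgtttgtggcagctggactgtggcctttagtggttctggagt

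Those on the acceptor side are from KIAA1551 (chr12:31987166-31987250, plus strand), ACTN4 (an actin-binding alpha-actinin, chr19:38727856-38727957, plus strand) and ESYT1 (a tether between endoplasmic reticulum and plasma membrane, chr12:56143483-56143591, plus strand). Here the bases before the capitals are the end of the intron, where a branchpoint would be sought.
KIAA1551 acceptor: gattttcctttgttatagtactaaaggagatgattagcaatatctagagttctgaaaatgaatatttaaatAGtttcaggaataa
ACTN4 acceptor: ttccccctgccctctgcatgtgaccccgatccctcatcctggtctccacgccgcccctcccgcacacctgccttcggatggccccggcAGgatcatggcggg
ESYT1 acceptor: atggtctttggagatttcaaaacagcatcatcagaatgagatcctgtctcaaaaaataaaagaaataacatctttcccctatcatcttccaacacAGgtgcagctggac

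The score is a whole number the authors gave each interval, whose meaning the labels and the file do not state. In BHLHE40, 95 intron bases were covered and the deposited sliver was the last 6 nt of the donor target (hg19, as for all slivers, counted from 1: chromosome 3, 5023296 to 5023301, score 28). In FGFR3 88 bases were covered and 13 nt remained (hg19 chromosome 4, 1804880 to 1804892, score 24), and in ARFGAP1 91 bases and 10 nt (hg19 chromosome 20, 61908095 to 61908104, score 19). The covered bases and the sliver add up to 101 at these donors, where the rebuilt target on the left side of an intron starts 1 nt inside it. At the acceptor of ESYT1, 97 bases were covered and 3 nt remained (hg19 chromosome 12, 56537264 to 56537266, score 33). At that of ACTN4 90 bases were covered and 10 nt remained (hg19 chromosome 19, 39218486 to 39218495, score 38), and at that of KIAA1551 73 bases and 27 nt (hg19 chromosome 12, 32140073 to 32140099, score 41). Each of these 6 scored below at least 1 of its 2 neighbours; the pair beside KIAA1551 scored 66 and 16, and that beside ARFGAP1 49 and 115.

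Slivers were rare and held little of the design. They made up 0.962% of the autosomal intervals and 0.146% of the targeted bases (52725 bases), with a median width of 15 nt. Full-width targets, of exactly 100 nt, numbered 318405 (87.6%). Intervals of 31 to 69 nt, the next wider class, numbered 4654 (1.28%). At the upper limit of the class, 114 slivers had 30 nt and 130 intervals had 31 nt, with mean scores of 5.94 and 6.82.

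Sliver widths had no period of 3 nt. Of the 3495 slivers, 33.4% (1166) were multiples of 3, 33.1% (1157) left 1 and 33.5% (1172) left 2. In the intervals of 31 to 69 nt the shares were 33.8%, 33.7% and 32.5%. Counts per width were nearly flat from 7 to 30 nt, between 96 and 131 slivers at each width. The narrowest were commoner: widths of 1 nt (162 slivers) and 2 nt (163) were the 2 most frequent, and widths of 1 to 6 nt averaged 140 slivers each, against 111 for widths of 7 to 30 nt. Among these narrowest 838, multiples of 3 were the least frequent (28.998%, against 34.7% that left 1 and 36.3% that left 2).

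**Figure D1:**
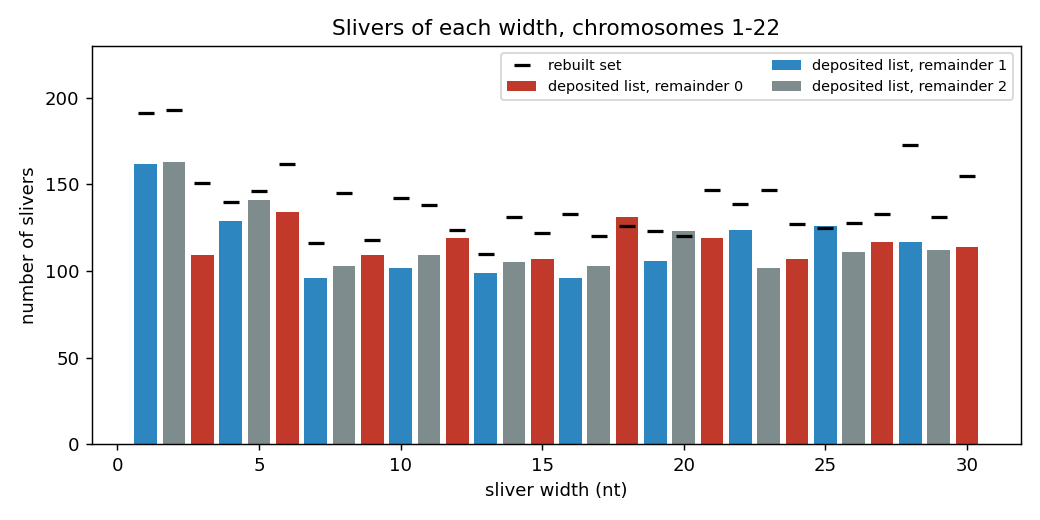
Number of slivers (vertical axis) at each width in nt (horizontal axis), for the deposited list as bars coloured by the remainder after division by 3, and for a set rebuilt from GENCODE release 29 as dashes. Widths of 1 and 2 nt were the commonest in both sets, and no remainder stood out from 7 nt upwards.

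The first slivers by position of each width from 1 to 5 nt differed in how far they lay from other targets. The first sliver of 1 nt by position was base 1564413 of chromosome 1, which lay 209 nt from the target to its left and 278 nt from the target to its right and scored 8. The first of 2 nt ran from 1475834 to 1475835 on chromosome 1 (score 0), only 34 nt from a target of 62 nt. The first of 4 nt ran from 24018321 to 24018324 on chromosome 1 (score 0), with no other target for 51442 nt to the left and 51745 nt to the right. The first of 3 nt (1452447 to 1452449, score 2) matched an intron of ATAD3A, which encodes an ATPase of the mitochondrial membrane, and that of 5 nt ran from 745441 to 745445 (score 0).

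The nearer gap of a sliver was longer than that of a full-width target, and the farther gap shorter. The nearer neighbour of a sliver lay at a median of 206 nt (quartiles 129 and 353 nt), against 142 nt (95 and 268 nt) for full-width targets. The median of the farther gap was 1796 nt for slivers and 2520 nt for full-width targets. Both neighbours lay within 1000 nt for 37.9% of slivers (1324) and for 27.3% of full-width targets. For intervals of 31 to 69 nt the values lay near those of slivers, with a median nearer gap of 180 nt and 39.3% with both neighbours close.

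The nearer neighbour was itself a full-width target for 69.1% of slivers (2414), against 88.2% of full-width targets. Very short gaps of at most 10 nt stood next to 2.58% of slivers (90) and 0.742% of full-width targets. These distances have no replicate error and were not tested.

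Gaps beside slivers, taken alone, did not show the period of 3 nt of gaps between full-width targets. Among 3187 gaps of 30 to 400 nt beside slivers, 34.5% were multiples of 3, 34.0% left 1 and 31.4% left 2. Among 123882 such gaps between full-width targets, 38.6% left 1. When the sliver's own width was added to its gap, a remainder of 2 became the commonest (35.6%, against 31.4% and 33.0% for remainders of 0 and 1). The same sum beside intervals of 31 to 69 nt left 2 in 36.5%. In the commonest rebuilt kind, described below, the gap on the splice-site side held 70 to 99 covered bases of the target besides an exon. Such a gap alone cannot show a period in exon length. Gap plus width can there equal the exon plus 101 nt, which leaves 2 where the exon is a multiple of 3. Whether this holds for the deposited slivers was not tested.

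Some slivers were one side of a single intron end with a piece taken out of its middle. For 190 slivers (5.44%), the sliver, the nearer gap and the neighbour across it together spanned 100 or 101 nt. Every other total from 80 to 120 nt occurred at most 7 times, with a median of 2. The piece taken out had a median of 42 nt and ran from 3 to 93 nt. An example is ADGRG7, an adhesion G protein-coupled receptor gene on chromosome 3. A sliver of 11 nt (100364954 to 100364964) and one of 12 nt (100365042 to 100365053) lay 77 nt apart and, in the matched annotation described next, flanked the exon of a small nucleolar RNA. In the set rebuilt from GENCODE release 29, 70 slivers (1.68%) were of this kind. The exon between was that of a spliced transcript in 49, a microRNA in 15 and a small nucleolar RNA in 6.

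To see which gene structures leave slivers, the stated recipe was laid over GENCODE release 29, which lies on another build (GRCh38), without the removal of repeats or transcribed regions. The rebuilt autosomal set held 425412 intervals, of which 4156 (0.977%) were slivers, against 0.962% in the deposited list. Its widths had no period of 3 nt either (32.8%, 33.5% and 33.7% for remainders of 0, 1 and 2) and widths of 1 to 6 nt were again commoner (164 slivers per width, against 132 for 7 to 30 nt). With the basic transcripts alone, the set of 417533 intervals held 1529 slivers (0.366%), so the share depended on the transcripts used.

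Most rebuilt slivers had a transcript end as an edge. At least 1 edge was the start or end of an annotated transcript model, and not a splice site, in 3890 of 4156 (93.6%). The commonest kind, 54.7% (2274), lay between a transcript's start or end and the 100 nt limit of the target. There an exon covered the 70 to 99 target bases nearest the splice site, and only the far end remained. Of these slivers, 1680 had a gap of 30 to 400 nt on the splice-site side. That gap plus the width left 2 in 37.4% of them, against 32.2% for 0 and 30.4% for 1. A further 37.5% (1559) lay between a splice site and a transcript's start or end, so the bases next to the splice site remained and the rest was covered. Slivers bounded by 2 splice sites of different introns made up 3.42% (142), and those that were a whole annotated intron 2.98% (124). The working description of slivers was leftovers between alternative splice sites or overlapping exons. Slivers with a transcript's start or end as an edge were cut by an overlapping exon, the second part of that description. The first part, 2 alternative splice sites, matched the edges of few rebuilt slivers. The recipe itself limits that share, since each splice site brings its own 100 nt target and an interval from a splice site to the 100 nt limit is never a sliver. The rebuilt set also left out the removal of repeats and transcribed regions, and the edges of deposited slivers without a match are unknown.

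**Figure D2:**
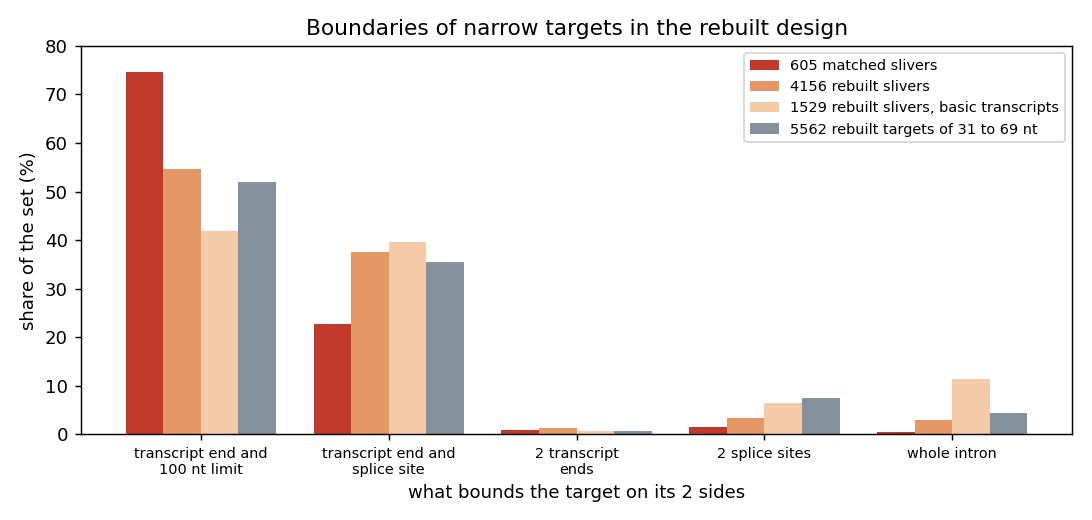
Share of each set in % (vertical axis) by what bounds the target on its 2 sides (horizontal axis), for 605 deposited slivers matched to the annotation, 4156 rebuilt slivers, 1529 rebuilt slivers from basic transcripts, and 5562 rebuilt targets of 31 to 69 nt. In all 4 sets the kinds with a transcript's start or end lead, and 2 splice sites of different introns bound at most 7.48%. Whole introns, which also lie between 2 splice sites, were shown apart and reached 11.4% with basic transcripts.

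The transcript ends that cut into intron ends were mostly those of the same gene. Of the 3890 rebuilt slivers with such an edge, 81.2% (3160) were cut by a transcript of the gene that owns the intron, 12.8% (499) by a gene on the opposite strand and 4.47% (174) by another gene on the same strand. Retained-intron transcripts bounded 38.2% (1485). Protein-coding transcripts bounded 30.6% (1192) and processed transcripts, models with no annotated reading frame, 15.1% (589). The edge was the transcript's 5′ end in 64.1% (2493) and its 3′ end in 35.1% (1364). In 1.54% (60) every bounding transcript was marked as incomplete at that end. Whether the other annotated ends are those of real RNA was not tested.

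Donor and acceptor ends were cut in different places. Among the 2274 rebuilt slivers at the far end of a target, 56.0% (1274) belonged to an acceptor and 43.98% (1000) to a donor. At those acceptors the covered bases include the stretch nearest to the 3′ end of the intron, where branchpoints lie. Among the 1559 that touch a splice site, 73.7% (1149) touched a donor and 26.3% (410) an acceptor.

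The kind between 2 splice sites mostly involved 2 genes. Of its 142 rebuilt slivers, 102 (71.8%) lay between splice sites of different genes, and 98 (69.01%) lay between splice sites on opposite strands. The targets that were whole introns were the narrowest kind, with a median of 3 nt, and 89 of the 124 had 1 to 6 nt. They made up 9.05% of all rebuilt slivers of 1 to 6 nt and 1.10% of those of 7 to 30 nt. A rebuilt target starts 1 nt inside the left edge of its intron, so these widths are not intron lengths. Whether such short annotated introns are spliced was not tested.

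Deposited slivers were then tied to genes by their spacing. A sliver was matched where its width, both gaps and both neighbours' widths were found once in each list on the same chromosome, with no conversion of coordinates. This matched 605 slivers (17.3%) to 586 genes, and all 605 stood in the same order along the chromosomes in both lists. Full-width targets matched in 60.4%. Of the 605, 5 had no gene that owned an intron there. Matched slivers are those with the same spacing in both lists, so they do not stand for all slivers. Of the 605, 74.5% (451) lay between a transcript end and the 100 nt limit, 22.6% (137) between a transcript end and a splice site, 9 between 2 splice sites and 3 were whole introns. Retained-intron transcripts bounded 58.9% of the 593 with a transcript end.

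Most splice sites behind the covered stretches had the usual bases. Where the bounding transcript of the same gene could be read across the site, GT opened the intron at 759 of 777 rebuilt donors (97.7%). AG closed it at 1059 of 1063 acceptors (99.6%). Only this position was read, on the transcript's own strand.

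Most genes held a single matched sliver. Of the 586 genes, 548 had 1, 36 had 2 and 2 had more. Overlapping gene records were counted apart, and CHURC1-FNTB and FNTB, for example, share the same 2 slivers. RNF213, a very large ubiquitin ligase gene on chromosome 17, had 4, and TG, the thyroglobulin gene on chromosome 8, had 3. The RNF213 slivers had widths of 28, 16, 17 and 18 nt and scores of 1, 4, 8 and 0, in order along the chromosome from 78311286 to 78362329. All 4 lay at the far end of a target cut by a retained-intron transcript, at an acceptor for 3 of them and at a donor for the other. In TG, whose product is made in the thyroid, widths were 11, 21 and 17 nt and all 3 scores were 0.

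The 20 genes with the most matched slivers, with ties taken by alphabet and overlapping records counted apart, held 41 of them. Of these, 32 lay at the far end of a target, 8 touched a splice site and 1 lay between 2 splice sites. A retained-intron transcript bounded 26 of the 41, and 58.9% of all matched slivers with a transcript end. The score was 0 in 22 of the 41, and in 47.4% of all 605 matched slivers. Among those 22 were both slivers of CCND1 (cyclin D1), DYSF (dysferlin, a muscle membrane repair protein) and ARNT2 (a transcription factor partner). The same held for GEN1 (a Holliday junction resolvase) and CTNNBL1 (a spliceosome-associated protein).

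High scores among these 20 genes were few. In ATXN2L, an RNA-binding ataxin-2 relative, a sliver of 25 nt next to an acceptor scored 82 (chromosome 16, 28842258 to 28842282), and another of 20 nt at the far end of an acceptor target scored 17 (28841079 to 28841098). The annotation bounded both of them by the 5′ and the 3′ end of a single retained-intron transcript. In HSF4, a heat shock transcription factor gene, slivers of 10 nt (score 47) and 18 nt (score 25) lay 100 nt apart on chromosome 16 from 67201196 to 67201323, the left against an acceptor and the right against a donor. COPZ1, a coatomer subunit gene, had a sliver of 27 nt that scored 44 and, 133 nt farther on, a sliver of 20 nt that scored 2. ERBB3, a receptor of the epidermal growth factor family, had slivers of 5 and 26 nt with scores of 0 and 1.

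Matched slivers were rare in genes at large, and the lists for splicing and RNA metabolism held 1. Of 34385 spliced genes in the annotation, 586 (1.70%) had a matched sliver. None of 27 splicing factor genes and none of 79 ribosomal protein genes had a matched sliver, while 8 and 15 of them had a sliver in the rebuilt set. Of 15 small nucleolar RNA host genes found in the annotation, 3 had a rebuilt sliver and 1 a matched sliver. In the rebuilt set, 3702 of the 34385 spliced genes (10.8%) had a sliver. With so low a share over all genes, counts of 0 say nothing particular about the lists. The matched host was SNHG4, which overlaps MATR3, and its sliver of 28 nt (chromosome 5, 138611841 to 138611868, score 17) lay between a donor and the start of a small nucleolar RNA.

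Most slivers had no other sliver close by. Another sliver started within 1000 nt of 8.47% of them (296). Intervals of 31 to 69 nt had one of their own kind within that distance in 8.83%. At least 1 of the 2 intervals directly next to a sliver in the list was another sliver for 7.38% (258). Slivers were 0.962% of the autosomal intervals. That is a share per single interval, while the first share counts a neighbour on either side, so the 2 are not alike. For intervals of 31 to 69 nt these shares were 7.65% and 1.28%. Of 3340 groups formed this way (single slivers included), 132 held 2 slivers, 5 held 3, 3 held 4 and 1 held 5. Some pairs were the 2 sides of a single split intron end, as in ADGRG7. The median distance to the nearest other sliver was 75825 nt.

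The largest group, on chromosome 12 from 50500875 to 50501325, had widths of 4, 4, 4, 2 and 2 nt within 451 nt and scores of 0 or 1. On chromosome 17 from 18251538 to 18251950, widths were 20, 4, 2 and 4 nt and scores 0 to 3. Its sliver of 2 nt matched a whole annotated intron of SHMT1, a folate enzyme gene. The other whole introns matched were those of GRAMD1B (chromosome 11, 123489397 to 123489398, score 0) and DMTN (chromosome 8, 21938311 to 21938312, score 7), the gene of the red cell membrane protein dematin. All 3 targets had 2 nt, and a rebuilt target starts 1 nt inside the left edge of its intron. On chromosome 12 from 56119753 to 56120933, widths were 28, 5, 22 and 21 nt and scores 5, 8, 4 and 45. Another group of 4, on chromosome 19 from 7704822 to 7705298 (widths 4, 1, 4 and 4 nt), was chosen after its scores of 69, 114, 41 and 41 were seen.

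Slivers bounded by 2 splice sites were matched in 9 cases, 8 of them between genes on opposite strands. The highest score among these, 34, was that of 15 nt between COA4 and PAAF1 (chromosome 11, 73587787 to 73587801). Others lay between PDCD4, a translation repressor gene, and its antisense gene (8 nt, score 3), between NOSTRIN and SPC25 (4 nt, score 9) and between the muscle gene ACTN3 and AP002748.1 (10 nt, score 0). The exception was ADAM28, with 25 nt and a score of 0.

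The score ran from 0 to 125 over the autosomal intervals. In slivers it had a median of 1, an upper quartile of 5 and a highest value of 122, and it was 0 in 45.4% (1585). In full-width targets the median was 1, the upper quartile 6, and 48.8% scored 0. By width, the share at 0 was 49.4% for 1 to 5 nt, 46.5% for 6 to 10 nt, 43.6% for 11 to 20 nt and 43.95% for 21 to 30 nt. Mean scores of these classes were 4.69, 7.07, 6.16 and 5.53, with no steady change with width.

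Averaged over the 22 chromosomes, the mean score was 5.50 ± 1.91 for slivers and 6.40 ± 2.03 for full-width targets (SD between chromosomes). The difference was -0.90 ± 1.55 (SD, n = 22), below 0 on 16 chromosomes and above 0 on 6. It was smaller than the SD between chromosomes, which is not the error of the mean. Chromosomes 1 and 2 had differences of 1.42 and 1.55, the largest above 0. Without them the means were 5.47 ± 1.95 for slivers and 6.61 ± 1.95 for full-width targets (SD between chromosomes, n = 20). Chromosomes are blocks of the genome and not replicates, and no test was run.

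Set against the full-width target next to it, a sliver more often had a lower score than a higher one, as did intervals of 31 to 69 nt. Among 2502 slivers with a full-width neighbour within 1000 nt, the mean score was 5.00 for the sliver and 10.1 for the nearest such neighbour. The sliver was lower in 48.2% (1207), equal in 34.7% (869) and higher in 17.0% (426). Intervals of 31 to 69 nt were lower in 42.9%, equal in 34.2% and higher in 22.9%, with means of 6.99 for the interval and 10.04 for the neighbour. Full-width targets compared in the same way were lower in 27.3%, equal in 45.3% and higher in 27.4%. For slivers, the mean difference per chromosome was -5.26 ± 2.37 (SD, n = 22) and lay below 0 on all 22 chromosomes, from -10.9 on chromosome 20 to -1.16 on chromosome 8. Spearman's rho between the sliver's score and its neighbour's was 0.67, a description across 2502 pairs that share genes. A score of 0 beside a neighbour above 0 was found in 15.9% of these slivers (397), and the opposite in 5.12% (128). The shares were 14.03% and 6.40% for intervals of 31 to 69 nt, near those of slivers, and 7.84% and 7.86% for full-width targets.

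**Figure D3:**
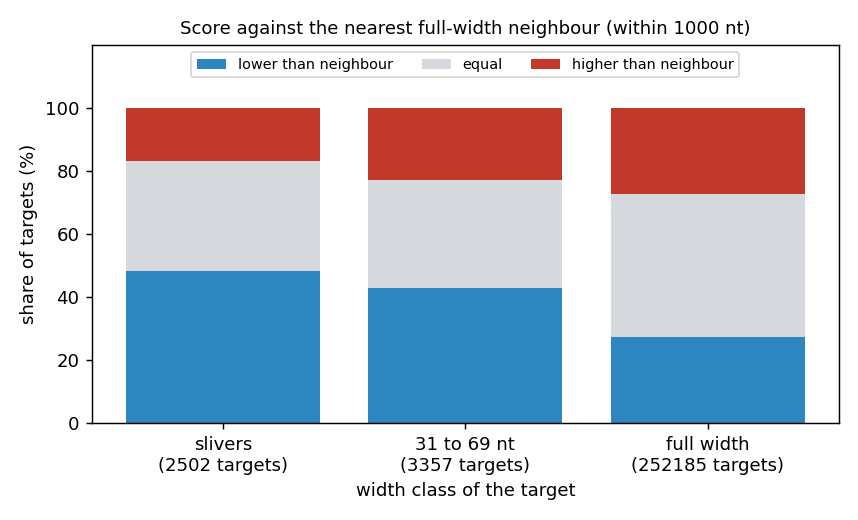
Share of targets in % (vertical axis) whose score was lower than, equal to or higher than that of the nearest full-width target within 1000 nt, for slivers, intervals of 31 to 69 nt and full-width targets (horizontal axis). Slivers were lower in 48.2% and higher in 17.0%, while full-width targets were about even at 27.3% and 27.4%.

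Scores differed between the 2 main kinds of matched sliver. Those at the far end of a target (451) had a mean of 3.22 and a median of 0, with 51.7% at 0. Those touching a splice site (137) had a mean of 8.05 and a median of 2, with 35.8% at 0. Within the second kind, the 47 at acceptors had a mean of 12.5 and the 90 at donors a mean of 5.72. Against the full-width neighbour, far-end slivers averaged 3.28 and their neighbours 8.59 (397 pairs), and those touching a splice site averaged 7.80 and their neighbours 9.98 (115 pairs). These are values of a fixed list and were not tested.

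The 5 highest-scoring slivers had no match to a gene. They lay on chromosome 21 from 27096989 to 27097008 (20 nt, score 122), chromosome 22 from 19503950 to 19503956 (7 nt, score 121), chromosome 1 from 155583844 to 155583849 (6 nt, score 118), chromosome 3 from 50325936 to 50325942 (7 nt, score 118) and chromosome 8 from 145737757 to 145737774 (18 nt, score 116). The sliver on chromosome 8 stood between targets that scored 92 and 104. The one on chromosome 21 had no target within 6817 nt, and its neighbours scored 1 and 13.

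The share of targets that were slivers ranged from 0.339% on chromosome 18 (20 slivers) to 1.46% on chromosome 16 (215), with a median of 0.923% over the 22 chromosomes. Chromosome 14 had 1.33%, chromosome 12 1.31% and the gene-rich chromosome 19 0.612%. On chromosome 18 the 20 slivers had a mean score of 0.95, against 5.53 for its full-width targets. Chromosomes 1 and 2 lay near the median, with 0.928% and 0.862%.

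**Figure D4:**
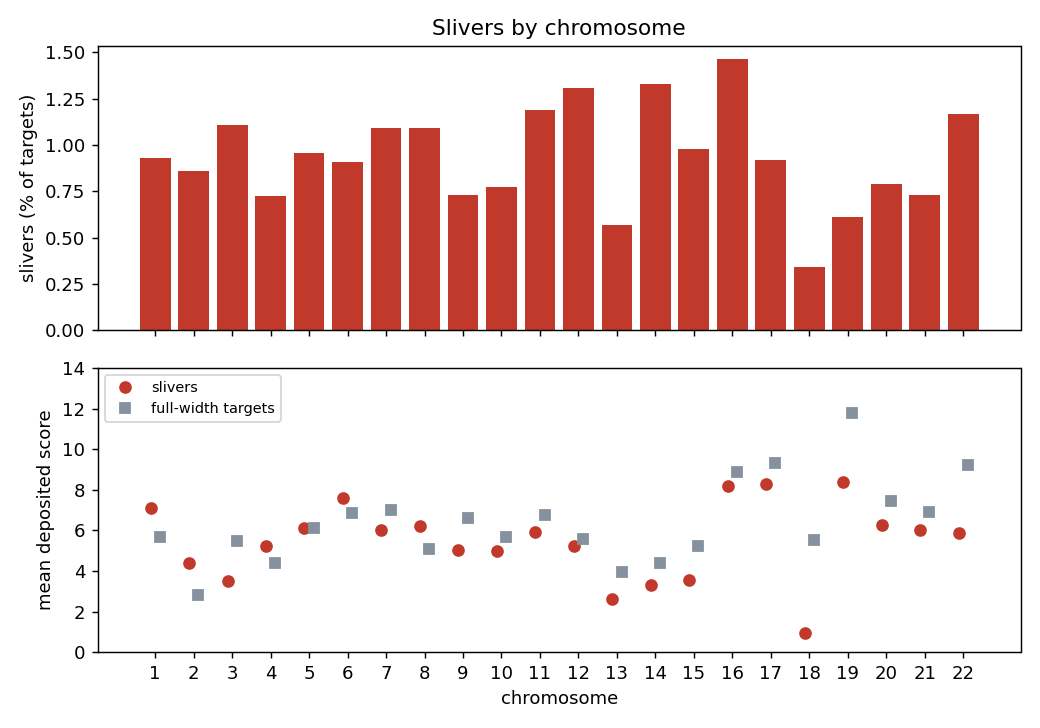
Upper panel: slivers as a share of all targets in % (vertical axis) on each of the 22 chromosomes (horizontal axis). Lower panel: mean deposited score of slivers (circles) and of full-width targets (squares) on the same chromosomes; slivers lay lower on 16 of 22, and farthest apart on chromosome 18 (0.95 against 5.53).

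Intervals are numbered along each chromosome in the list, and some numbers are missing. A missing number came directly before or after 3.66% of slivers (128), 3.29% of intervals of 31 to 69 nt and 1.39% of full-width targets.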

How the data were processed

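The values come from the deposited interval list of the capture design, which all 3 K562 libraries share. The authors, per the labels' protocols, aimed probes at 100 nt of each intron end of GENCODE release 12 and left out exons, regions highly transcribed in K562 and repeats. The submitters' processing notes name hg19, Bowtie2, TopHat2 and bedtools, with no role. The deposited score is a whole number per interval and was treated as a score of unknown meaning and scale. No depth is given. Slivers were intervals of 1 to 30 nt on chromosomes 1 to 22. Gaps, remainders and groups (starts at most 1000 nt apart) were counted, with no tests, as a census has no replicates. GENCODE release 29 (GRCh38) gave the rebuilt set, with the left edge of each intron moved 1 nt inward, which earlier results of these data had shown to fit. Each edge was classed as a splice site, a transcript's start or end, or the 100 nt limit, and a splice site took precedence. Slivers were matched by spacing, not by coordinates. On a copy of the rebuilt basic set for chromosomes 20 to 22, with shifted coordinates and removed intervals, 5 of 15259 matches were wrong. That copy held intervals of all widths and no change of release, so it does not give the error of the sliver matches. All 400 simulated window sets equalled a base-by-base construction. Named regions were the 5 highest scores, the 3 largest groups and the first of each width of 1 to 5 nt. Named genes were the 20 with most matched slivers and the members of 3 lists. Example transcript stretches came from outside chromosome 8. The genomic sequence of the slivers themselves was not used here. Members, lists and choices were made with earlier results of these data known. Python 3.11.15, numpy 2.4.6, pandas 2.3.3, scipy 1.17.1 and matplotlib 3.10.9 were used.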

Additional observations from a re-analysis of the deposited data

How the results depend on the processing

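The limit of 50 nt gave 5806 slivers. Gaps to the left or right neighbour alone had medians of 439 and 408 nt, since they include the farther gap. Both neighbours lay within 300 nt for 15.1% and within 3000 nt for 61.6%. Other slivers started within 500 nt of 6.67% and within 5000 nt of 16.2%. Scores of 0 or 1 made up 57.6%. The difference in mean score from full-width targets was -0.90 over all and -5.26 against the nearest full-width neighbour. It turned round when the share scoring above 0 was used, which was 1.74 percentage points higher in slivers. That difference had an SD of 5.34 between the 22 chromosomes and lay above 0 on 13 and below 0 on 9. The rebuilt set had 1529 slivers with basic transcripts, and 393 slivers matched with 2 neighbours on each side. The share of rebuilt slivers with a transcript's start or end was 98.0% for matched slivers, 96.4% for those matched by width and gaps alone and 82.1% with basic transcripts; these 3 alternatives were chosen after the data were seen. Leaving out chromosomes 1 and 2 moved no count by over 1.5 times. No paired analysis was possible because all 3 libraries form a single group and share 1 list, which also leaves no replicate to take out. The depth behind the score is unknown, so what it limits cannot be given.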

Other observations

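On the sex chromosomes, which the rule left out, X had 107 slivers (0.832% of its 12854 intervals), with a mean score of 8.87 and 43.0% at 0. Y had 11 (0.682% of 1614), and all 11 scored 0. Among matched slivers, the highest scores were those of SPDYE2B on chromosome 7 (9 nt, score 86), ATXN2L (25 nt, score 82), CACYBP on chromosome 1 (16 nt, score 79), SAP30 on chromosome 4 (8 nt, score 78) and MOV10 on chromosome 1 (8 nt, score 76). SAP30 is a subunit of a histone deacetylase complex and MOV10 an RNA helicase. SPDYE2B has near-identical copies, so which copy it stands for is uncertain.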
